A study of Mus musculus with 12 samples.

Results

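Mitochondrial RNA processing and tRNA charging was followed here through 39 nuclear genes, all of which were found among the 54751 features of the deposited count table. They were taken as a named list and not by their measured values. The list holds 4 genes of precursor cleavage, 6 genes of the FASTK family, 2 PTCD genes, 7 genes of tRNA modification and CCA addition, 4 genes of rRNA modification, and 16 mitochondrial aminoacyl-tRNA synthetases, 9 of class I and 7 of class II. Whole hearts of C57BL/6N mice aged 52 weeks were compared by total-RNA sequencing, with 3 control libraries and 3 knockout libraries. Both groups carry Rexo2 alleles flanked by loxP sites on both copies (Rexo2loxP/loxP), and the knockout group carries in addition 1 Ckmm allele (+/Ckmm), named for the muscle creatine kinase gene whose promoter commonly drives Cre recombinase in heart and skeletal muscle. Such a driver acts in cardiomyocytes, so other cells of the heart may keep Rexo2, and the Ckmm allele itself cannot be told apart from loss of Rexo2. The labels do not tie a library to an animal, so p-values measure only how these samples vary, part of which may be technical. Libraries are called by the numbers in the table, control 490, 498 and 502 and knockout 492, 499 and 501, and values by library follow this order. Another 6 libraries in the series, of RNA ends, are not analysed here.

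Mammalian mitochondrial DNA (mtDNA) is transcribed into long precursors in which tRNAs lie between the rRNAs and mRNAs. Mitochondrial RNase P, a protein complex, cuts the precursor at the front of each tRNA and ELAC2 cuts behind it, which frees most mRNAs and rRNAs at the same time. The freed tRNAs receive a CCA tail, base modifications and their amino acid before they serve the mitochondrial ribosome, and all these enzymes are encoded in the nucleus and imported. REXO2, the product of the targeted gene, degrades very short RNA fragments in mitochondria and cytosol.

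Depth ranged from 41979163 to 50764023 recovered reads per library, most of them from mtDNA. Features encoded by mtDNA took 69.4%, 70.0% and 69.5% of the reads in the control libraries. In the knockout libraries they took 71.5%, 71.9% and 71.5%, without overlap. The nuclear genes followed here were counted from the remaining reads. Rexo2 held 330, 368 and 293 counts in the control libraries against 274, 288 and 314 in the knockout libraries and the ranges overlapped. Which exons were deleted was not used here, so a count over the whole gene is no check of the genotype, and knockout stands for the label. Cardiomyocyte markers were abundant in every library, with 8 markers that summed to between 564592 and 620394 counts. Other cell types were present, with sums of 13299 to 18269 for erythroid markers and 14449 to 14953 for smooth muscle and pericytes. Sums were 8408 to 9713 for endothelium, 7724 to 8546 for fibroblasts and 950 to 1149 for macrophages. In contrast, 4 adipocyte markers summed to at most 5.64 counts and 5 lymphocyte markers to at most 42.7. Without overlap, macrophage Adgre1 lay above in knockout, as did Cfd near 0 counts, and fibroblast Pdgfra below. Of all tested features, 9.51% did not overlap. limma called neither Adgre1 nor Pdgfra, and it did not test Cfd, whose mean of 0.85 counts was under its filter. The 6 skeletal muscle markers summed to between 15716 and 17056 counts in control and between 18223 and 19479 in knockout, without overlap. Of the 6, only Acta1, which heart muscle also expresses, was apart, with 2186 to 4183 counts in control and 4433 to 5755 in knockout, and limma did not call it. Ckm overlapped, at a log2 fold change of 0.042, and the other 4 had means under 10, with Myh4 at 0 in all 6 libraries. The part of these markers in the results below was not tested. Control 490 stood apart on the first principal component (26.4% of the variance, -30.1 against -5.63 to 16.7 in the other 5 libraries). Knockout 492 and 501 stood apart in opposite directions on the second (22.5%, -25.5 and 25.9 against -2.47 to 2.64 in the other 4), and control 490 and knockout 501 stood apart in the Lars2 counts described below.

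None of the 39 genes passed the test between the groups, limma on log2(normalised count + 1) with Benjamini-Hochberg adjustment over all 18250 tested features at 0.05. All 39 passed the filter of a mean of 10 counts, with means of 71.5 counts or more. limma called 0 of the 39 and had 0 at an unadjusted p under 0.05, where 0.0219% of all tested features were called and 3.7% had an unadjusted p under 0.05. edgeR on the recovered reads called 0 of 39 (0.0274% of all tested features). DESeq2 called 0 of the 19 members to which it gave an adjusted p (0.456% of all features with one). Again 0 members had an unadjusted p under 0.05 in either tool. The authors' deposited table called 0 of the 20 members with an adjusted p there, where it called 0.437% of all features with one, and had 0 members at an unadjusted p under 0.05. Of the 39 log2 fold changes, knockout minus control, 21 were above 0 and 18 below, with a median of 0.018, beside 9168 above and 9082 below with a median of 0.00056 over all tested features. In bulk hearts, fewer cells of a type and less RNA per cell cannot be told apart.

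The intervals bound how large a change could have been missed. In 37 of the 39 genes the 95% interval of limma lay within a 1.5-fold change in either direction, as it did in 13081 of the 18250 tested features. The exceptions to the 1.5-fold bound were Sars2, with an interval from -0.63 to 0.28 on the log2 scale and the lowest counts of the list, and Lars2, with an interval from -4.08 to 1.33. The groups did not overlap in 4 of the 39 genes, all with the knockout libraries above, which is 10.3% of the list where 9.51% of all tested features did not overlap, 4.61% with the knockout libraries above and 4.9% with them below. These 4 were Fastkd5, Ears2, Mars2 and Wars2.

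**Figure D1:**
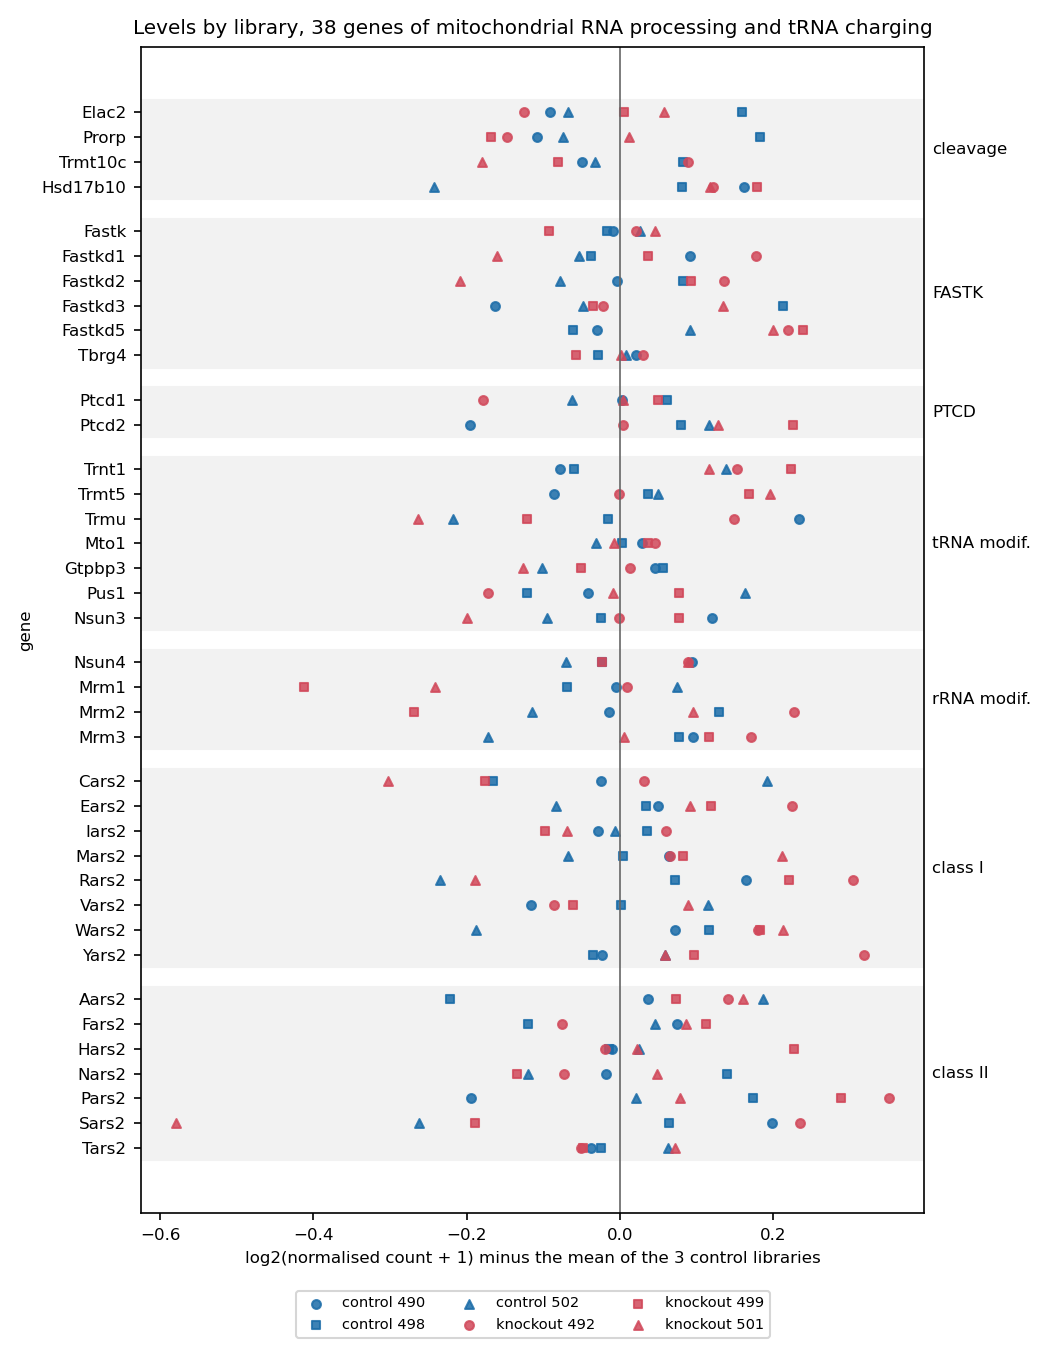
Level of 38 genes in each of the 6 libraries (Lars2 is left out for its range), as log2(normalised count + 1) minus the mean of the 3 control libraries on the x axis, with genes by role on the y axis, blue marks for control and red marks for knockout libraries. Red and blue marks interleave in 34 rows, and in Fastkd5, Ears2, Mars2 and Wars2 the 3 red marks lie to the right of the 3 blue ones.

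No gene of precursor cleavage passed the test. RNase P of mitochondria consists of TRMT10C, a tRNA methyltransferase, HSD17B10, a dehydrogenase that serves as its partner, and PRORP, the nuclease itself. Hsd17b10 (ENSMUSG00000025260.10, chromosome X, 152001896 to 152004442 in GRCm38) held 809, 764 and 611 counts in the control libraries against 786, 818 and 784 in the knockout libraries. Control 502 was the low library and the other 5 lay together, so the groups overlapped. Its mean was 728 ± 104 in control and 796 ± 19.2 in knockout (SD, n = 3), a log2 fold change of 0.14 (SE 0.091) (limma adjusted p = 1.00), and it was 0.018 without control 502. Prorp (ENSMUSG00000021023.14, listed as 1110008L16Rik in the name table, chromosome 12, 55302637 to 55382492), whose span overlaps that of Ppp2r3c, held 141, 173 and 144 counts in the control libraries against 137, 135 and 153 in the knockout libraries. Control 498 was highest and the groups overlapped, with a log2 fold change of -0.10 and an SE of 0.12 (limma adjusted p = 1.00). Trmt10c was at a log2 fold change of -0.058, with an interval from -0.25 to 0.13. Elac2, which encodes the RNase Z that cuts behind the tRNA, was at -0.020, with an interval from -0.25 to 0.21. Of these 4 genes 1 was above 0 and 3 below.

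The FASTK family and the PTCD proteins handle junctions and transcripts beyond the tRNA cuts. FASTK is needed for the mt-Nd6 mRNA, TBRG4 (also known as FASTKD4) stabilises several mitochondrial mRNAs, FASTKD2 acts on the large rRNA, and FASTKD5 is needed for mRNA ends that no tRNA marks. Fastkd5 (ENSMUSG00000079043.2, chromosome 2, 130613846 to 130630002), whose span overlaps that of Ubox5, held 103, 101 and 112 counts in the control libraries against 122, 124 and 121 in the knockout libraries. The 3 knockout libraries were close to each other and above all controls. Its mean was 105 ± 6.02 in control and 122 ± 1.66 in knockout (SD, n = 3), a log2 fold change of 0.22 (SE 0.12) and an interval from -0.048 to 0.49 (limma adjusted p = 1.00). The SE is larger than the spread of these 6 values because limma moderates the variance toward that of features with similar counts. Leaving out each library in turn gave log2 fold changes from 0.19 to 0.26.

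Fastkd3 (ENSMUSG00000021532.11, chromosome 13, 68582167 to 68592338), the member with the next smallest p in the family, overlaps Mtrr by span and held 110, 143 and 119 counts in the control libraries against 121, 120 and 135 in the knockout libraries. Control 498 was highest and control 490 lowest, and the knockout libraries lay between them. Its log2 fold change of 0.026 had an interval from -0.26 to 0.31, and it was -0.056 without control 490 and -0.029 without knockout 501. Fastk and Tbrg4 varied least, with log2 fold changes of -0.0088 (interval -0.13 to 0.11) and -0.0085 (interval -0.15 to 0.13). Fastkd1 was at 0.018 and Fastkd2 at 0.0064, and both overlapped between the groups. In all, 4 of the 6 family genes were above 0 and 2 below, with a median of 0.012.

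The pentatricopeptide repeat proteins PTCD1 and PTCD2 bind mitochondrial RNA, PTCD1 acting on the large rRNA and leucine tRNAs and PTCD2 on the mt-Cytb transcript. Ptcd2 (ENSMUSG00000021650.7, chromosome 13, 99319649 to 99344678) held 307, 372 and 382 counts in the control libraries against 353, 412 and 385 in the knockout libraries. Control 490 was the low library, and without it the log2 fold change of 0.12 (SE 0.099) was 0.021. Ptcd1 (ENSMUSG00000029624.10, chromosome 5, 145147378 to 145167104), whose span overlaps that of Bud31, held 366, 382 and 350 counts in the control libraries against 323, 379 and 367 in the knockout libraries. Knockout 492 was lowest, and the log2 fold change of -0.042 (SE 0.087) was 0.027 without it. limma gave an adjusted p of 1.00 to both.

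Among the 7 genes of tRNA modification and CCA addition, Trnt1 came nearest to the threshold. TRNT1 adds the CCA tail to which amino acids are attached, and it serves cytosolic tRNAs as well. Trnt1 (ENSMUSG00000013736.16, chromosome 6, 106769138 to 106782474), whose span overlaps that of Crbn, held 306, 309 and 355 counts in the control libraries against 359, 377 and 350 in the knockout libraries. Control 502 lay among the knockout libraries and the other 2 controls below them. Its mean was 323 ± 27.6 in control and 362 ± 13.8 in knockout (SD, n = 3), a log2 fold change of 0.16 (SE 0.088), an interval from -0.024 to 0.35 and an unadjusted p of 0.083 (limma adjusted p = 1.00). The value ran from 0.13 to 0.23 when each library was left out.

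Trmt5 (ENSMUSG00000034442.11, chromosome 12, 73268515 to 73286975), which encodes the methyltransferase of the guanosine beside the anticodon, overlaps Mnat1 and Slc38a6 by span. It held 411, 447 and 452 counts in the control libraries against 436, 490 and 500 in the knockout libraries, with knockout 492 inside the control range and the other 2 knockout libraries above it. Its log2 fold change reached 0.12 (SE 0.081) (limma adjusted p = 1.00). The enzymes of the wobble uridine showed smaller differences, with Mto1 at 0.025 and Gtpbp3 at -0.055, partners that add a taurine-derived group, and Trmu, which adds sulfur, at -0.079. Mto1 was the steadiest of all 39 genes, with counts from 282 to 297 over the 6 libraries. Pus1, a pseudouridine synthase, was at -0.035 and Nsun3, which methylates the anticodon of the methionine tRNA, at -0.041. Of the 7 genes 3 were above 0 and 4 below.

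The rRNA modification genes held the smallest p of the list, for Mrm1. MRM1, MRM2 and MRM3 methylate ribose groups of the large mitochondrial rRNA, and NSUN4 methylates a cytosine of the small one. Mrm1 (ENSMUSG00000018405.7, chromosome 11, 84813061 to 84819515) held 275, 263 and 291 counts in the control libraries against 278, 207 and 234 in the knockout libraries. Knockout 492 lay within the control range while knockout 499 and 501 lay below it. Its mean was 276 ± 13.9 in control and 240 ± 35.7 in knockout (SD, n = 3), a log2 fold change of -0.21 (SE 0.11), an interval from -0.45 to 0.024 and an unadjusted p of 0.074 (limma adjusted p = 1.00). The value stayed below 0 when each library was left out, between -0.33 and -0.12. Mrm3 (ENSMUSG00000038046.4, chromosome 11, 76243736 to 76250625) held 234, 231 and 194 counts in the control libraries against 247, 238 and 220 in the knockout libraries, with control 502 the low library, and its log2 fold change of 0.098 (SE 0.11) was 0.012 without it. Nsun4 was at 0.052 and Mrm2 at 0.018. The rRNA that the MRM enzymes modify, mt-Rnr2, lay between 20444235 and 20890649 counts in control and between 22676784 and 23165758 in knockout, without overlap. Its log2 fold change was 0.15, called by edgeR (adjusted p = 0.0014) but not by limma (adjusted p = 1.00) or DESeq2 (adjusted p = 0.094). The small rRNA, mt-Rnr1, lay between 2534665 and 2795959 counts in control and between 2729886 and 2889450 in knockout, with overlap. Its log2 fold change was 0.071, and limma, edgeR and DESeq2 did not call it.

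**Figure D2:**
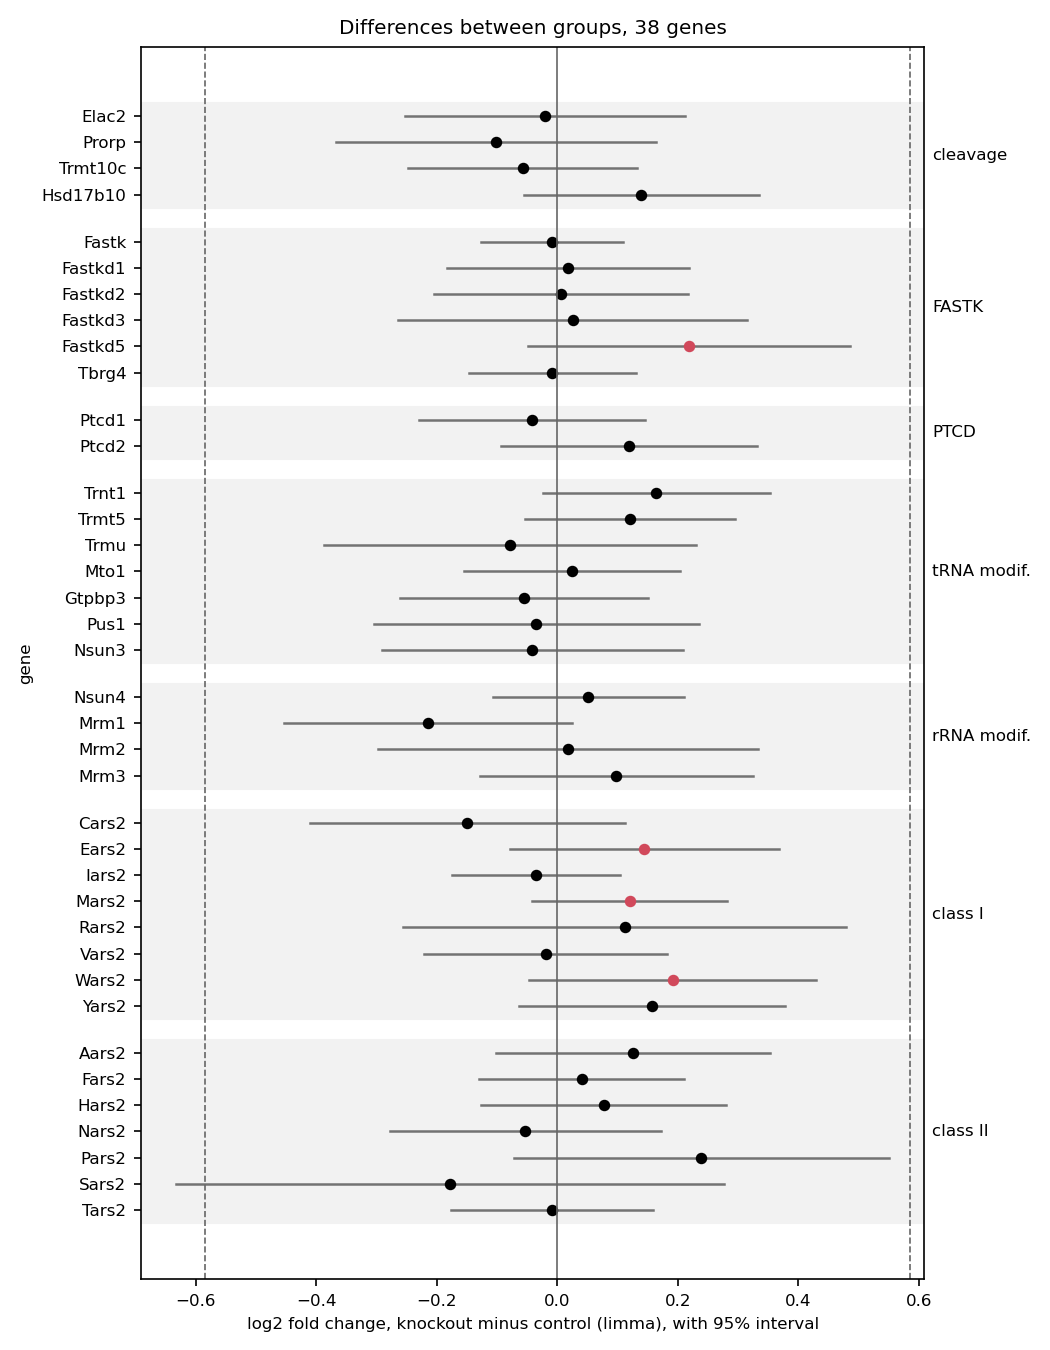
log2 fold change, knockout minus control, from limma for the same 38 genes on the x axis, with the 95% interval as a line, genes by role on the y axis, red points where the groups did not overlap, and dashed lines at a 1.5-fold change. Every interval drawn crosses 0, from -0.21 for Mrm1 to 0.24 for Pars2 in the point values, and only that of Sars2 crosses a dashed line.

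Aminoacyl-tRNA synthetases attach each amino acid to its tRNA and fall into 2 classes by the fold of their catalytic domain. Without Lars2, described below, 9 of the 15 mitochondrial synthetases were above 0 and 6 below, with a median log2 fold change of 0.077. limma called 0 of the 15 and had 0 at an unadjusted p under 0.05, as did edgeR and DESeq2, beside the shares given above. DESeq2 gave no adjusted p to some of the 15, Wars2 and Pars2 among them. Wars2 (ENSMUSG00000004233.14, chromosome 3, 99140107 to 99221230), the tryptophan enzyme of class I, held 184, 190 and 154 counts in the control libraries against 199, 199 and 203 in the knockout libraries. The knockout libraries lay close together above all controls, of which control 502 was lowest. Its mean was 176 ± 19.5 in control and 200.2 ± 2.52 in knockout (SD, n = 3), a log2 fold change of 0.19 (SE 0.11) and an interval from -0.046 to 0.43 (limma adjusted p = 1.00), and it was 0.098 without control 502.

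Mars2 (ENSMUSG00000046994.9, chromosome 1, 55237177 to 55240058), the methionine enzyme, held 503.0, 482 and 459 counts in the control libraries against 503.4, 509 and 557 in the knockout libraries. The groups were apart by less than 1 count between control 490 and knockout 492. Its log2 fold change reached 0.12 (SE 0.075) (limma adjusted p = 1.00). Ears2, the glutamate enzyme and the third class I gene without overlap, held 179, 177 and 163 counts in the control libraries against 202, 187 and 184 in the knockout libraries, a log2 fold change of 0.14. Yars2, the tyrosine enzyme, was at 0.16 and Rars2, the arginine enzyme, whose span overlaps that of Orc3, at 0.11. Iars2 was at -0.035, Vars2 at -0.019 and Cars2 at -0.15, the enzymes of isoleucine, valine and cysteine.

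Class II held the largest upward value of the list. Pars2 (ENSMUSG00000043572.7, chromosome 4, 106651069 to 106655282), the proline enzyme, held 85.8, 111 and 99.7 counts in the control libraries against 126, 120 and 104 in the knockout libraries. Knockout 501 lay inside the control range and the other 2 knockout libraries above it. Its mean was 98.8 ± 12.6 in control and 117 ± 11.4 in knockout (SD, n = 3), a log2 fold change of 0.24 (SE 0.14) and an interval from -0.072 to 0.55 (limma adjusted p = 1.00). Aars2 (ENSMUSG00000023938.8, chromosome 17, 45503515 to 45520843), the alanine enzyme, held 282, 236 and 313 counts in the control libraries against 304, 290 and 308 in the knockout libraries. The knockout libraries lay within the control range, and the log2 fold change of 0.12 (SE 0.11) was 0.014 without control 498. Hars2 was at 0.077, Fars2 at 0.041, Tars2 at -0.0091, Nars2 at -0.053 and Sars2 at -0.18, the enzymes of histidine, phenylalanine, threonine, asparagine and serine. Hars2 overlaps its cytosolic counterpart Hars by span. Counts of different genes are not compared with each other here, since transcript lengths were not used.

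Lars2, the leucine enzyme of class I, was unlike the other members in its spread between libraries, and it is singled out here after its values were seen. Lars2 (ENSMUSG00000035202.8, chromosome 9, 123366927 to 123462675) held 20198, 607 and 240 counts in the control libraries against 235, 227 and 3123 in the knockout libraries. Control 490 and knockout 501 were high, control 498 somewhat high, and the remaining 3 libraries lay between 227 and 240, so the groups overlapped. The highest library was 88.9-fold above the lowest. On the log2 scale this range was 6.47, the third widest of the 18250 tested features, whereas the other 38 members ranged over 0.077 (Mto1) to 0.81 (Sars2) with a median of 0.31. The log2 fold change of Lars2 was -1.38 (SE 1.26) (limma adjusted p = 1.00). It turned to 0.53 without control 490, and it was -0.72 without control 490 and knockout 501 together, where control 498 was the high library. It ranged from -2.67 without control 502 to 0.53 over the fits that left out 1 library. edgeR gave -2.57 (adjusted p = 1.00). The authors' deposited table gave -2.55 and no p-value, as for 4 other features among the 32233 with a fold change there.

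Of the 6 features with the widest range, 3 were high in the same libraries as Lars2 and the other 2 were not. The 2 features above it in range were Gm15564 and Gm42418, and Mir6236 came next below. Xlr3b and Cyp26b1, the next in order, had log2 ranges of 5.38 and 5.13 and a Pearson's r with Lars2 of 0.026 and 0.031 over the 6 libraries. RefSeq lists Gm42418 as a synonym of Rn18s-rs5, a pseudogene related to 18S ribosomal RNA, at chromosome 17, 39846354 to 39848202. Gm42418 held 146938, 4190 and 1641 counts in the control libraries against 1398, 1421 and 23716 in the knockout libraries. This is the order of the Lars2 counts in the high libraries, with the same 3 libraries above the rest. Lars2 counts per 1000 counts of Gm42418 were 137, 145 and 146 for the controls against 168, 160 and 132 for the knockout libraries. The ratio thus varied between 132 and 168 while Gm42418 itself varied 105-fold. Relative to control 502, each added 1000 counts of Gm42418 came with 137 added counts of Lars2 in control 490, 144 in control 498 and 131 in knockout 501. Gm15564, a long noncoding RNA that RefSeq places on chromosome 16, held 1025, 34.8 and 1.02 counts in the control libraries against 5.37, 0.947 and 130 in the knockout libraries. Across the 6 libraries, in which these features were counted from the same reads, Pearson's r with Lars2 on the log2 scale was 0.999 for Gm42418, 0.96 for Gm15564 and 0.99 for Mir6236.

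Mir6236 is a miRNA gene on chromosome 9 (110281287 to 110281409), outside the span of Lars2. It held 768, 32.0 and 11.2 counts in the control libraries against 22.5, 9.47 and 121 in the knockout libraries, high in the same libraries. The counts are of the gene feature in a total-RNA library and not of the mature miRNA. Its mature form in RefSeq is shown because it is the 1 short sequence among these features, with the seed, bases 2 to 8, in capitals.
mmu-miR-6236: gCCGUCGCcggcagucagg
The 4 features together took 0.372% of the reads in control 490, 0.0572% in knockout 501 and 0.0108% in control 498, against 0.0035% to 0.0043% in the other 3 libraries. The libraries were depleted of cytoplasmic rRNA before sequencing, per the labels' protocols, and how completely this worked in each library was not tested, nor was its part in the Lars2 counts. The 5 features without a p-value in the authors' deposited table were these 4 and Cyp26b1. Of the substrate tRNAs of LARS2, mt-Tl1 did not stand apart in control 490 from the other controls. mt-Tl1 lay between 1705 and 1856 counts in control and between 1934 and 2235 in knockout, without overlap. Its log2 fold change was 0.19 (SE 0.064, limma unadjusted p = 0.0095), and limma, edgeR and DESeq2 did not call it after adjustment. mt-Tl2 lay between 2.82 and 13.2 counts over all 6 libraries.

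**Figure D3:**
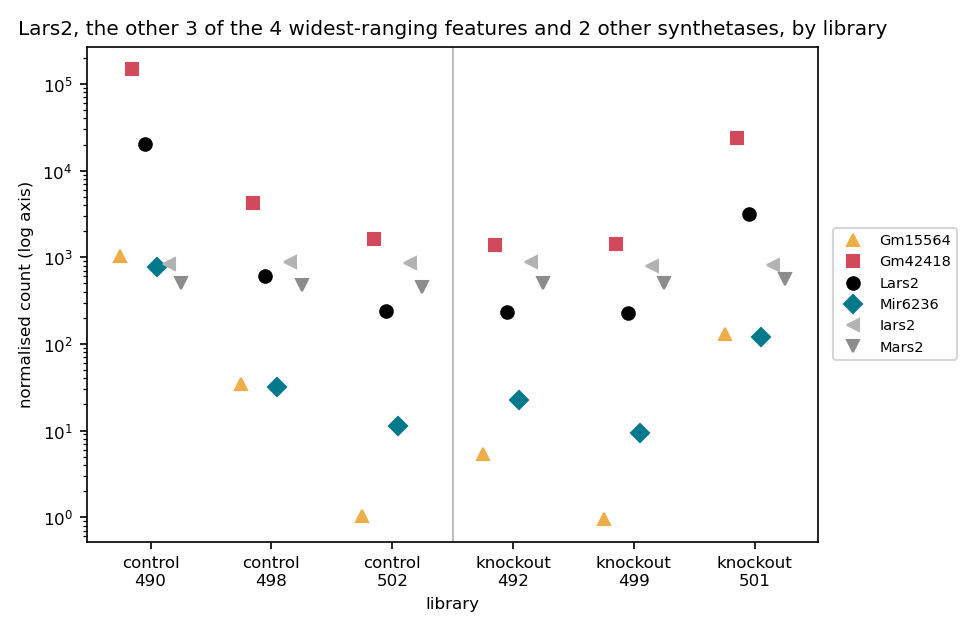
Normalised counts on a log axis (y) in each of the 6 libraries (x, controls on the left, marks offset sideways by gene) for Lars2, for Gm42418, Gm15564 and Mir6236, and for the synthetases Iars2 and Mars2. Lars2 follows Gm42418 in the high libraries, from 20198 counts in control 490 to 607 in control 498, and lies between 227 and 240 in the low ones. Mars2 stays between 459 and 557.

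Genes of the same pathway outside the list, and the cytosolic counterparts of the synthetases, were read from the same fit. Of 32 other genes of mitochondrial tRNA and rRNA handling, limma, edgeR and DESeq2 each called 0 and had 0 at an unadjusted p under 0.05. limma called 0.0219% and edgeR 0.0274% of all tested features, and DESeq2 called 0.456% of the 7233 features to which it gave an adjusted p. An unadjusted p under 0.05 was held by 3.7% and 3.78% of all tested features in limma and edgeR. In DESeq2 it was held by 1% of the 32228 features with a p. DESeq2 gave no adjusted p to some of the 32, Mtfmt and Ptrh2 among them. Of the 32, 17 were above 0 and 15 below, with a median log2 fold change of 0.0055. The 2 of smallest p were Mtfmt, which formylates the initiator methionine tRNA that MARS2 charges, and Ptrh2, a peptidyl-tRNA hydrolase. Mtfmt held 86.7, 76.1 and 79.4 counts in the control libraries against 96.6, 92.8 and 104 in the knockout libraries, without overlap. Its log2 fold change reached 0.27 (SE 0.14) and an unadjusted p of 0.074 (limma adjusted p = 1.00). Ptrh2 was at 0.20 (SE 0.11, limma adjusted p = 1.00), likewise without overlap. In all, 4 of the 32 genes (12.5%) did not overlap, beside the 9.51% of all tested features, with Mtfmt, Ptrh2 and Nsun2 above in knockout and Rpusd3 below, at a log2 fold change of -0.20. Hars, Lars and Nars, the cytosolic counterparts of Hars2, Lars2 and Nars2, were not found by name among the features and were not read. Of 17 cytosolic synthetase genes and scaffold genes of their complex, limma, edgeR and DESeq2 each called 0 and had 0 at an unadjusted p under 0.05. DESeq2 gave no adjusted p to some of these 17, Tars among them. Of the 17 genes, 11 were above 0 and 6 below, with a median of 0.017. Their smallest p were those of Aimp1, a scaffold protein (log2 fold change 0.13, SE 0.093), and Tars, the cytosolic threonine enzyme (0.11, SE 0.095), both with overlap and a limma adjusted p of 1.00.

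Promoter letters, which the definition of the list did not use, differed among its genes. RefSeq promoter windows in GRCm38.p6, 250 bases before to 50 after a start site, were at hand for 36 of the 39 genes, and 8 motifs were searched on both strands. CCGGAAG, the core bound by ETS factors such as GABPA, was in the windows of 14 of the 36 genes (38.9%), beside 9.93% of 27025 genes with a window and 19.5% of the 9906 tested protein-coding genes among them. AAGATGGC, a core of YY1 sites, was in 8 of 36 (22.2%), beside 3.19% and 5.13%. Ptcd2 and Tbrg4 held both, and 20 genes held the ETS core, the YY1 core or both. The NRF1 palindrome was in 0 of 36 (1.07% of all and 2.29% of tested coding genes), the shorter GCGCATGCG, which lies within it, in 2 (1.95% and 4.06%) and a looser form of the palindrome, which allows any base at 1 place, in 4 (5.19% and 11.1%). AAGGTCA, the core of estrogen-related receptor sites, was in 1 (5.38% and 3.78%), CCAAT in 14 (41.1% and 42.7%) and TATAAA in 4 (15.7% and 8.90%). The median GC content was 59.0% in the windows of the list, 52.7% over all windows and 60.7% over those of tested coding genes, so base composition is closer to that of the tested coding genes. A match is a description of letters and not a measured binding site.

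The windows of Mrm1, Fastkd5 and Wars2 are shown because these genes had the smallest p in 3 of the roles and each holds 1 such core close to its start site, ETS in Mrm1 (chr11:84819466-84819765, minus strand) and Fastkd5 (chr2:130629953-130630252, minus strand) and YY1 in Wars2 (chr3:99140840-99141139, plus strand), in capitals.
Mrm1: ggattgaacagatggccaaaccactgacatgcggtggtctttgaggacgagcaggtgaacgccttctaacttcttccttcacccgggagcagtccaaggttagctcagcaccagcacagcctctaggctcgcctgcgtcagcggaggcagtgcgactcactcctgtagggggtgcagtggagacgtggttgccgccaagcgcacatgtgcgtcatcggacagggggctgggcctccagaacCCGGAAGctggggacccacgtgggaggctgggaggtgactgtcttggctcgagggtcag
Fastkd5: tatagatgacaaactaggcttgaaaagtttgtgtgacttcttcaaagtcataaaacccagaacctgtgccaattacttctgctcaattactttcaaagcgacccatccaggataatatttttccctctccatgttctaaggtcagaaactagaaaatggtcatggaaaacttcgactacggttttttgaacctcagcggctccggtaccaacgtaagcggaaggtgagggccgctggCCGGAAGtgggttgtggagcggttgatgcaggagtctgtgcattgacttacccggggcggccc
Wars2: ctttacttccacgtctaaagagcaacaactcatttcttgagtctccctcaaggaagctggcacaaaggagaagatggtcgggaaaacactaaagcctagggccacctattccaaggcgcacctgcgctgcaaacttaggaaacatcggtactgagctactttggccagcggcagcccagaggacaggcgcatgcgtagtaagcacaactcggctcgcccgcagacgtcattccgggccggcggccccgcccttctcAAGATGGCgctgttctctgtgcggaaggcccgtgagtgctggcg
The ETS core begins 9 bases before the start site in Mrm1 and 13 bases before it in Fastkd5. In Wars2 the YY1 core begins at base 7 from the start site used. That window begins at 99140840, inside the Wars2 span that starts at 99140107, so this is not the outermost start of the gene. Other motifs searched also occur in these windows without capitals, AAGGTCA and CCAAT in Fastkd5 and GCGCATGCG in Wars2. Mrm1 and Fastkd5, which share the ETS core, were at log2 fold changes of opposite sign (-0.21 and 0.22), neither past the test.

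**Figure D4:**
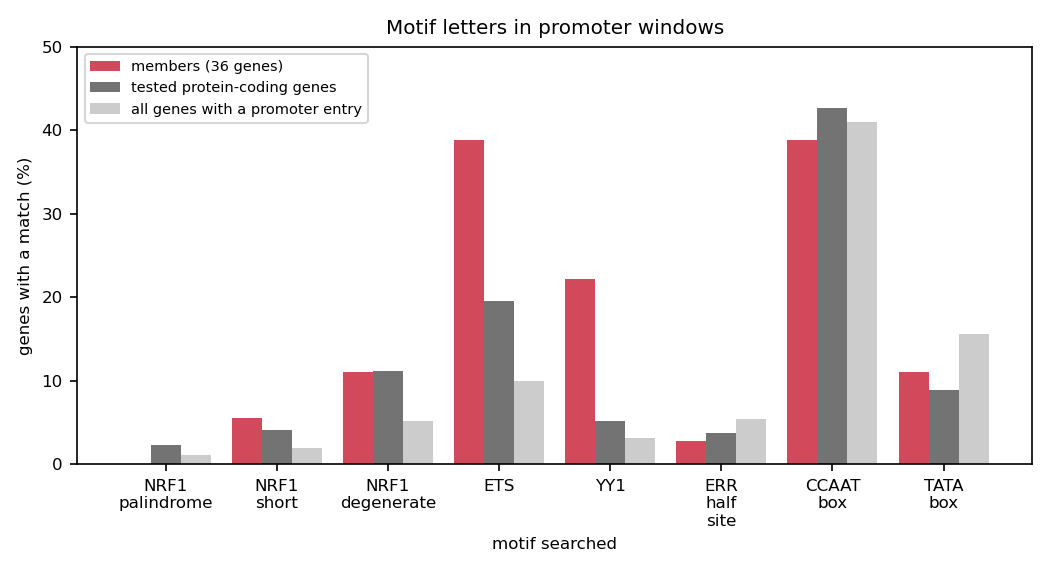
Share of genes (y, percent) whose promoter window holds each motif (x) among the 36 genes of the list with a window, the tested protein-coding genes and all genes with a window. The bars of the list stand at 38.9% for the ETS core and 22.2% for the YY1 core, above both comparison sets, and lie near the tested coding genes for CCAAT.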

How the data were processed

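The authors deposited normalised counts per feature, a signal made by dividing read counts by 1 factor per library, and a DESeq2 table with log2 fold changes, a test score and p-value columns, used only as given. The submitters' processing notes name Bowtie2 2.3.4.1, bedtools, featureCounts, R 3.5.2, DESeq2 1.22.2, mm10 and GRCm38. The sources used here do not say whether counting used strand, and 12 of the 39 genes overlap a protein-coding RefSeq gene by span, so their counts may not be separate.

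Dividing by the lowest nonzero value of each library gave whole reads for 100% of 156689 nonzero values, within 0.01, and these recovered reads fed edgeR 4.0.16 and DESeq2 1.42.0 as alternative count tests (5 and 33 features called). Symbols matched 53824 of 54715 Ensembl features. Positions are from RefSeq GRCm38, 1-based. Taken over features together, no pair of libraries within a group agreed within counting noise (chi-square per degree of freedom 3.34 to 13.7). Features with many reads weigh most in this value, such as Gm42418 with 164449 reads in control 490 and 4457 in control 498. It is therefore no measure of the spread of the listed genes.

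The main test was limma 3.58.1 in R 4.3.3 with a trended prior, 2-sided, on log2(value + 1), which understates changes of low genes, for features with a mean of at least 10, with genotype as the only term. On simulated counts for 18250 genes, 50 genes per fold were changed, all with a mean of at least 50 counts. There limma recovered 12% of genes changed 1.2-fold, 82% at 1.5-fold, 94% at 2-fold and 100% at 3-fold, and called 12 unchanged genes. Adjusted p-values are harder to pass where fewer features change, and only 4 were called in the real data. These shares are therefore not the power for the listed genes. Members, lists and motifs were chosen with earlier results of these data known. Library values are given for the 2 members of smallest p in each role. The rule also named the most abundant member per length, which was not computed because only genomic spans were used.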

Additional observations from a re-analysis of the deposited data

How the results depend on the processing

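The count of 0 called members held under all 19 alternatives, as did the counts of 0 in both comparison lists. Over all features, the count of 4 called by limma was 12 without a filter, 12 with robust moderation, 37 under equal totals over all features (4 under equal totals over features not encoded by mtDNA), 0 without a trend (835 at an unadjusted p under 0.05), 33 with DESeq2 and 33 in the authors' deposited table, between 1 and 8 with each library left out, and 21 without control 490 and knockout 501 together, a fit added after the data were seen. Equal totals over all features shifted the median of all features by -0.070, and the median of the list was then -0.052, with 14 members above 0 in place of 21. Equal totals over features not encoded by mtDNA went the other way, with a list median of 0.045, a median of 0.028 over all features and 26 members above 0. Of 285 alternative values of the 14 named members and Lars2, 279 kept their direction and side of the threshold and 6 changed sign. Fastkd3 turned to -0.044 under equal totals over all features and to -0.11 without control 490 and knockout 501, and ranged from -0.056 to 0.13 with each library left out. Ptcd1 ranged from -0.088 to 0.027 and Lars2 from -2.67 to 0.53 with each library left out. The cause was not tested. Of the 39 members, 20 kept their sign in every one of the 6 fits with 1 library left out. No paired analysis was possible because the table's columns carry no replicate number. Depth limits the low-count members most, with Sars2 at a mean of 71.5 counts and an SE of 0.21.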

Other observations

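Knockout 492 was the highest of the 6 libraries in 13 of the 39 genes (33.3%), where it was the highest in 17.4% of all tested features, and the other libraries were highest in 4 to 6 genes of the list. Knockout 492 was also the highest library in Trmt10c, at 423 counts, and in Yars2, at 261, while it was the lowest in Ptcd1, at 323. Control 490, which stood apart on the first principal component, was the highest library in 4 genes of the list and the lowest in 6, beside 17.9% and 18.3% of all tested features. The within-group SD on the log2 scale had a median of 0.12 over the 39 genes, and it ran from 0.029 in Mto1 to 0.33 in Sars2, with Lars2 at 2.83.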
